A study of Bos taurus with 36 samples.

Results

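The genes described here make bile acids from cholesterol in the liver or carry bile acids and sterols across the hepatocyte membrane. The list holds 10 genes: CYP7A1, CYP8B1, CYP27A1, CYP7B1, SLC27A5, BAAT, SLC10A1, ABCB11, ABCG5 and ABCG8. A probe set was taken as measuring a gene when the annotation table gave it that single symbol, current or older. By this rule 5 of the 10 genes had 8 probe sets, among the 9155 genes that could be named on the array, and CYP8B1, CYP7B1, BAAT, ABCB11 and ABCG5 were not analysed here. CYP7A1, CYP27A1, SLC27A5 and ABCG8 had 1 probe set each and SLC10A1 had 4, of which the brightest, Bt.17213.1.A1_at, stands for the gene unless another is named.

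Liver biopsies came from 8 Holstein-Friesian cows that had calved for the first time 9 to 12 weeks before, and each biopsy was measured on 1 Affymetrix Bovine Genome Array (36 arrays). Every cow received 200 µg of E. coli lipopolysaccharide (LPS, 0111:B4), a component of the bacterial outer membrane, in 10 ml of saline into the right front gland of the udder, and saline alone into the left front gland. Biopsies were taken at 9 and 48 h after LPS in all 8 cows, at 3, 6 and 12 h in cows 1, 3, 7 and 8 only, and at -22 h, before LPS, in all 8. No array here comes from a cow without LPS, so the hours since LPS and the time of day cannot be told apart. The number of earlier biopsies differed between cows at 9 and 48 h, where it was compared, and was the same in all 4 cows at 3, 6 and 12 h. The question put to each gene was how its transcript level at each hour differed from that at -22 h.

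Bile acids are made from cholesterol in hepatocytes. The classic pathway starts with the 7α-hydroxylation of cholesterol by CYP7A1 in the endoplasmic reticulum, and the alternative pathway starts with the hydroxylation of the sterol side chain by CYP27A1 in mitochondria. The acids are activated with coenzyme A and conjugated to an amino acid, returned from portal blood by SLC10A1 and secreted into bile, while the half-transporters ABCG5 and ABCG8 together move sterols into bile. In humans and mice, bile acids that activate the receptor FXR (NR1H4) in the liver and in the gut, where the hormone FGF19 (FGF15 in mice) is released, lower the transcription of CYP7A1.

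Values are the deposited log2 expression values, so a difference of 1 is a 2-fold difference in the background-corrected and normalized signal. The medians of the 36 arrays lay between 4.15 and 4.38, 25% of all values lay below 2.49, and the highest value of any probe set was 16.37. A mean below 2.49 counted as near the lower end of the scale, and a change to or from it is a lower bound. Changes against -22 h come from limma with 1 mean per hour, and a change was called at a Benjamini-Hochberg-adjusted p below 0.05 over all 24128 probe sets. The 5 comparisons share the same 8 arrays at -22 h. In a piece of liver, fewer hepatocytes and less RNA per hepatocyte cannot be told apart.

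At 6, 9 and 12 h all 5 measured genes were lower than at -22 h, and none was higher at any hour. Over all probe sets, 22% were called lower at 6 h, 22.6% at 9 h and 18.9% at 12 h, and 3.5% were called higher at 3 h, 23.3% at 6 h, 32% at 9 h, 22.2% at 12 h and 17.9% at 48 h. At 3 h 1 of the 5 genes, CYP7A1, was lower (2.4% of all probe sets), and at 48 h 2 of the 5, CYP27A1 and SLC27A5, were lower (12.2% of all probe sets). The median log2 change of the 5 genes was -0.34 at 3 h, -1.02 at 6 h, -1.82 at 9 h, -3.45 at 12 h and -0.48 at 48 h, and that of all 9155 genes was between -0.02 and 0.04. The genes took 2 kinds of course: CYP7A1 and ABCG8 had their lowest mean at 6 h, and CYP27A1, SLC27A5 and SLC10A1 at 12 h. From 6 to 9 h the log2 values of CYP7A1 and ABCG8 changed by 0.36 (SE 0.57) and 0.30 (SE 0.44), neither called. Which of these 2 hours was their lowest thus cannot be told.

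**Figure D1:**
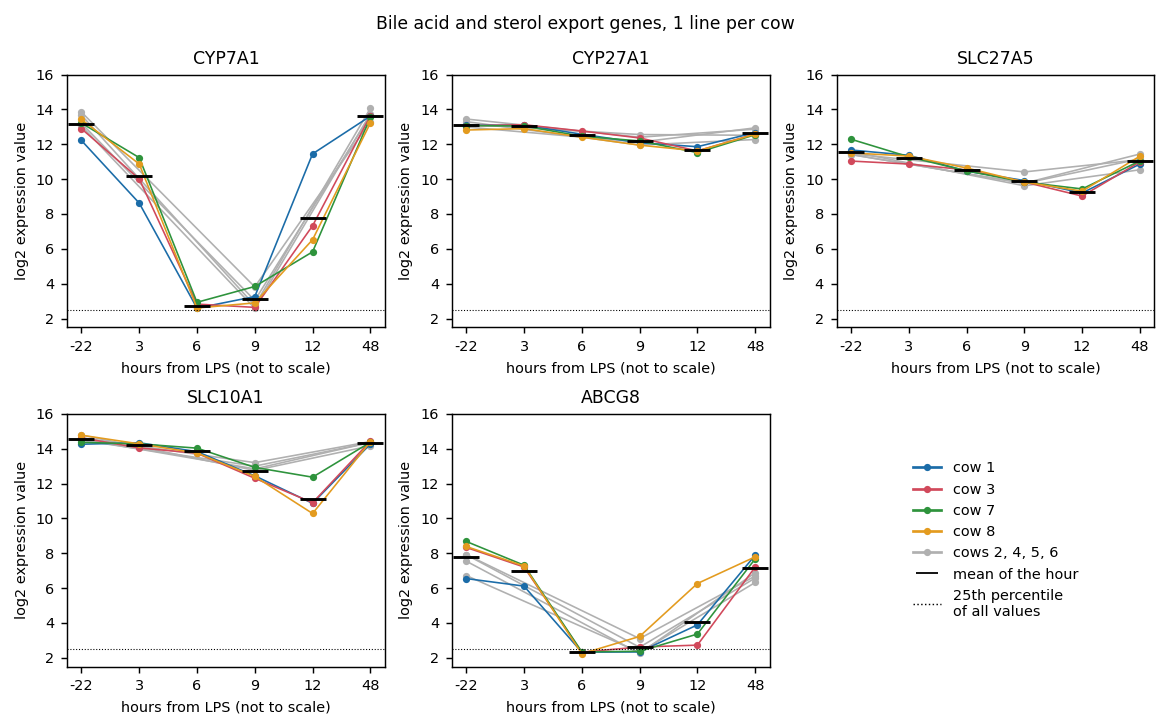
Log2 expression values (vertical axes) of the 5 genes at the 6 hours from LPS (horizontal axes, not to scale), with 1 line per cow, coloured for cows 1, 3, 7 and 8 and grey for the other 4, black bars for the mean of each hour and a dotted line at the 25th percentile of all values, 2.49. CYP7A1 and ABCG8 drop close to that line at 6 and 9 h, while CYP27A1, SLC27A5 and SLC10A1 stay above 9 at every hour.

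CYP7A1, the rate-limiting enzyme of the classic pathway, had log2 values of 12.22 to 13.85 at -22 h (median 13.21, 8 cows). At 3 h the values were 8.62, 10.01, 11.23 and 10.87 in cows 1, 3, 7 and 8. At 6 h they were 2.60, 2.83, 2.93 and 2.60 in the same cows. Within 6 h the transcript thus went down close to that 25th percentile, in each of the 4 cows. At 9 h the 8 cows lay between 2.58 and 3.84 (median 2.97), and at 12 h cows 1, 3, 7 and 8 had 11.45, 7.32, 5.83 and 6.52. At 48 h the values were 13.21 to 14.06 (median 13.62). No value at 3, 6, 9 or 12 h reached the lowest value at -22 h, and the values at 48 h overlapped with those at -22 h. Groups in which every value lay below every value at -22 h were found for 1.84% of all probe sets at 3 h, 15.5% at 6 h, 13.2% at 9 h, 12.4% at 12 h and 1.93% at 48 h.

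The log2 change of CYP7A1 against -22 h was -3.004 at 3 h (SE 0.57, adjusted p = 0.000594), which leaves 12.5% of the earlier level. It was -10.45 at 6 h (SE 0.57, adjusted p = 8.91e-16) and -10.09 at 9 h (SE 0.47, adjusted p = 2.61e-18). At both hours this was the largest fall of the 24128 probe sets, and since the means, 2.74 and 3.10, ended little above 2.49 both may understate the fall. At 12 h the change was -5.41 (SE 0.57, adjusted p = 1.55e-09), or 2.35% of the level at -22 h. At 48 h it was 0.41 (SE 0.47, adjusted p = 0.518, 95% interval -0.55 to 1.36), with higher values than at -22 h in 6 of 8 cows. With only the 4 cows that have all hours, the change at 3 h was -2.75 and was not called (adjusted p = 0.081), although all 4 had lower values at 3 h than at -22 h.

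The cows differed most in CYP7A1 at 12 h. The SD over the cows was 2.52 at 12 h (n = 4), against 0.50 at -22 h (n = 8). Against its own value at -22 h, cow 1 had a log2 change of -0.77 at 12 h, and cows 3, 7 and 8 had changes of -5.57, -7.39 and -6.90. Cow 1 also had the lowest CYP7A1 values of all at -22 h and at 3 h. Without the array of cow 1 at 12 h, left out after its value was seen, the change at 12 h was -6.63 (adjusted p = 2.97e-15). Without all arrays of cow 7 it was -4.75 (adjusted p = 4.47e-07).

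CYP27A1, the mitochondrial side-chain hydroxylase of the alternative pathway, moved much less. Its log2 values were 12.82 to 13.45 at -22 h (median 13.08), and 13.10, 13.12, 13.05 and 12.90 at 3 h in cows 1, 3, 7 and 8. At 6 h they were 12.58, 12.76, 12.46 and 12.41, at 9 h 11.95 to 12.56 (median 12.15, 8 cows), and at 12 h 11.86, 11.62, 11.52 and 11.62. At 48 h they were 12.27 to 12.94 (median 12.58). The values at 3 h lay within the range at -22 h, those at 6, 9 and 12 h lay below it in every cow, and those at 48 h overlapped with it. The log2 change was -0.07 at 3 h (SE 0.11, adjusted p = 0.75), -0.56 at 6 h (SE 0.11, adjusted p = 0.000112), -0.91 at 9 h (SE 0.09, adjusted p = 3.98e-10) and -1.46 at 12 h (SE 0.11, adjusted p = 1.91e-12), the last leaving 36.4% of the level at -22 h. At 48 h CYP27A1 was still lower by a log2 change of -0.49 (SE 0.09, adjusted p = 0.000285), in 8 of 8 cows.

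SLC27A5, the bile acid-CoA ligase that activates bile acids before conjugation, had log2 values of 11.03 to 12.29 at -22 h (median 11.48). They were 11.37, 10.86, 11.28 and 11.32 at 3 h, 10.46, 10.53, 10.47 and 10.64 at 6 h, 9.62 to 10.41 at 9 h (median 9.83), and 9.20, 9.02, 9.44 and 9.31 at 12 h. At 48 h they were 10.54 to 11.44 (median 11.08). From 6 to 12 h no cow overlapped with the range at -22 h. The log2 change was -0.34 at 3 h (SE 0.16, adjusted p = 0.272), -1.02 at 6 h (SE 0.16, adjusted p = 2.27e-06), -1.67 at 9 h (SE 0.13, adjusted p = 6.7e-13) and -2.30 at 12 h (SE 0.16, adjusted p = 1.09e-13), the last leaving 20.3% of the level at -22 h. At 48 h it was -0.48 (SE 0.13, adjusted p = 0.0077), with lower values in 7 of 8 cows. With only the 4 cows that have all hours, the change at 48 h was -0.57 and was not called (adjusted p = 0.0654).

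SLC10A1, the sodium-dependent transporter (NTCP) that takes conjugated bile acids up from portal blood, had log2 values of 14.26 to 14.78 at -22 h (median 14.58). They were 14.34, 14.04, 14.28 and 14.28 at 3 h in cows 1, 3, 7 and 8, and 13.83, 13.74, 14.03 and 13.75 at 6 h. At 9 h they were 12.30 to 13.20 (median 12.80), and at 12 h 10.86, 10.90, 12.36 and 10.28. On the brightest probe set the fall was thus largest between 6 and 12 h, after CYP7A1 had reached its lowest mean. Bt.16250.1.A1_at and Bt.16250.2.S1_at went the same way, at -1.33 and -1.27 at 6 h and -4.22 and -4.15 at 12 h. Bt.16250.3.S1_at did not: it was already at -2.50 at 6 h, and went from a mean of 5.19 at 6 h to 3.83 at 12 h. At 48 h the values of the brightest probe set were 14.16 to 14.43 (median 14.36) and overlapped with those at -22 h. The log2 change was -0.32 at 3 h (SE 0.21, adjusted p = 0.461), -0.72 at 6 h (SE 0.21, adjusted p = 0.00446), -1.82 at 9 h (SE 0.17, adjusted p = 3.65e-11), -3.45 at 12 h (SE 0.21, adjusted p = 3.2e-15) and -0.21 at 48 h (SE 0.17, adjusted p = 0.325). With only the 4 cows that have all hours, the change at 6 h was -0.66 and was not called (adjusted p = 0.0689).

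The other 3 probe sets of SLC10A1 also fell, and by more at 6, 9 and 12 h. At 12 h the log2 changes were -4.22 for Bt.16250.1.A1_at, -4.15 for Bt.16250.2.S1_at and -3.86 for Bt.16250.3.S1_at, against -3.45 for the brightest. On all 4 probe sets cow 7 had the highest of the 4 values at 12 h. The dimmest of the 4, Bt.16250.3.S1_at, was the only one called at 3 h. Its log2 values were 5.16, 5.84, 5.89 and 6.11 at 3 h, against 7.06 to 8.74 at -22 h (median 7.64), a change of -1.95 (SE 0.23, adjusted p = 1.95e-07). The other 3 were at -0.33, -0.14 and -0.32 at 3 h and were not called. At 48 h only Bt.16250.3.S1_at was called, at -0.63 (SE 0.19, adjusted p = 0.015). The parts of the transcript that the 4 probe sets read are not given in the sources used here, and differences between the probe sets were not tested.

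**Figure D2:**
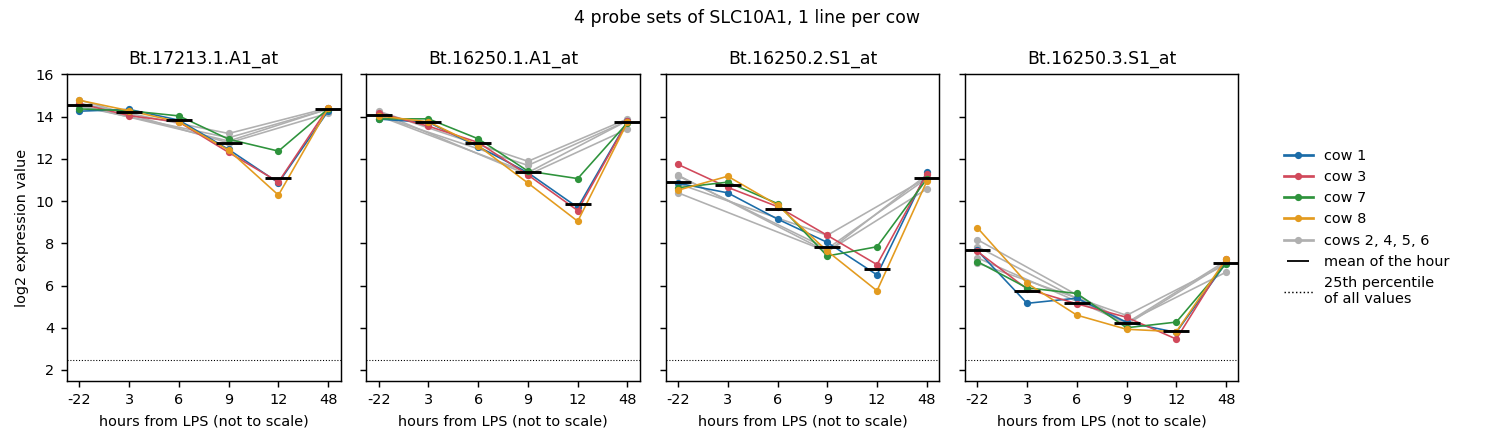
Log2 expression values (vertical axis) of the 4 probe sets of SLC10A1 at the 6 hours from LPS (horizontal axes, not to scale), with 1 line per cow, black bars for the mean of each hour and a dotted line at 2.49. All 4 are lowest at 12 h, and only Bt.16250.3.S1_at is already below its range at -22 h in all 4 cows at 3 h.

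ABCG8, the half-transporter that exports sterols into bile together with ABCG5, had its lowest mean at 6 h, as did CYP7A1. Its log2 values were 6.55 to 8.68 at -22 h (median 7.92), and 6.12, 7.21, 7.32 and 7.27 at 3 h in cows 1, 3, 7 and 8. At 6 h they were 2.33, 2.33, 2.34 and 2.24, and at 9 h 2.25 to 3.23 (median 2.49, 8 cows). From 3 to 6 h ABCG8 thus went down to the lower end of the scale in each of the 4 cows. At 12 h the values were 3.89, 2.73, 3.36 and 6.26, and at 48 h 6.32 to 7.89 (median 7.04). The log2 change was -0.78 at 3 h (SE 0.44, adjusted p = 0.392), -5.45 at 6 h (SE 0.44, adjusted p = 4.73e-12), -5.15 at 9 h (SE 0.36, adjusted p = 4.67e-14) and -3.70 at 12 h (SE 0.44, adjusted p = 1.5e-08), of which that at 6 h, to a mean of 2.31, is a lower bound and that at 9 h ended at a mean of 2.60. At 48 h it was -0.63 (SE 0.36, adjusted p = 0.165, 95% interval -1.36 to 0.10), with lower values than at -22 h in 7 of 8 cows. At 12 h cow 8 had the highest ABCG8 value and cow 1 the highest CYP7A1 value. Against their own values at -22 h, cows 1, 3, 7 and 8 had ABCG8 changes of -2.66, -5.60, -5.32 and -2.13 at 12 h. The cow nearest to its earlier level was thus cow 8 for ABCG8, with cow 1 close behind, and cow 1 for CYP7A1. Without the array of cow 8 at 12 h, left out after its value was seen, the change of ABCG8 at 12 h was -4.43 (adjusted p = 2.96e-11).

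**Figure D3:**
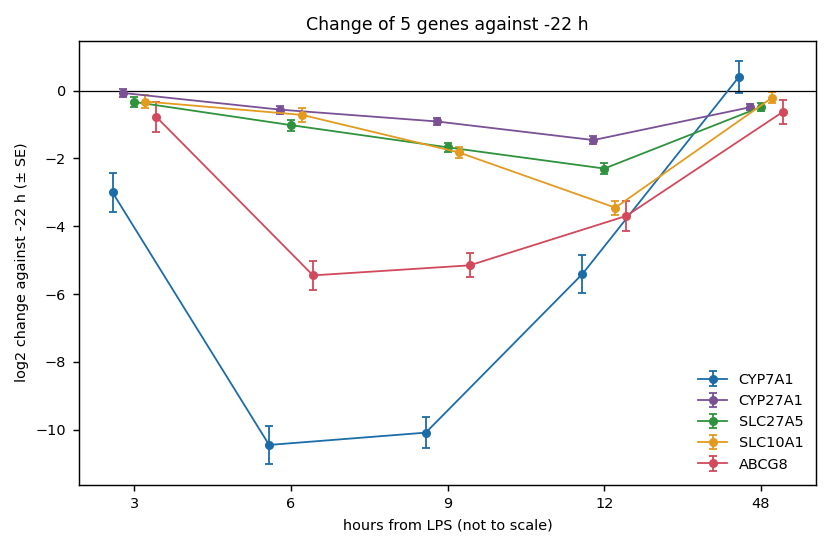
Mean log2 change against -22 h (vertical axis) of the 5 genes at 3, 6, 9, 12 and 48 h after LPS (horizontal axis, not to scale, points shifted sideways for legibility), with bars for the SE of limma. CYP7A1 reaches -10.45 at 6 h and ABCG8 -5.45, while CYP27A1, SLC27A5 and SLC10A1 are lowest at 12 h, at -1.46, -2.30 and -3.45.

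Successive hours were compared with a Bonferroni-adjusted p below 0.01 over all probe sets. From 3 to 6 h the log2 value of CYP7A1 changed by -7.44 (SE 0.66, adjusted p = 4.11e-08), the largest fall of all probe sets, and that of ABCG8 by -4.67 (SE 0.51, adjusted p = 4.79e-06), in a comparison that called 4.16% of all probe sets lower. From 6 to 9 h none of the 5 genes was called through its brightest probe set (2.35% of all probe sets were called lower), and with Benjamini-Hochberg adjustment at 0.05 this count was 3. Of the other SLC10A1 probe sets, Bt.16250.1.A1_at was called at -1.35 (adjusted p = 0.00361) and Bt.16250.2.S1_at at -1.80 (adjusted p = 0.00297).

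Between 9 and 12 h the genes moved in opposite directions. CYP7A1 was higher at 12 h than at 9 h by 4.68 on the log2 scale (SE 0.57, adjusted p = 7.55e-05), where 1.5% of all probe sets were called higher. SLC10A1 was lower by a log2 difference of -1.63 (SE 0.21, adjusted p = 0.000135), where 1.28% were called lower. Of its other probe sets, Bt.16250.1.A1_at was called, at -1.54 (adjusted p = 0.000297). Bt.16250.2.S1_at at -1.08 and Bt.16250.3.S1_at at -0.40 were not called. ABCG8 had a difference of 1.46 (SE 0.44, adjusted p = 1), and of 0.72 without the array of cow 8 at 12 h. The difference of CYP7A1 was 3.45 without the array of cow 1 at 12 h (adjusted p = 7.05e-06) and 5.43 without cow 7 (adjusted p = 8.93e-05). The calls of CYP7A1 and of the brightest SLC10A1 probe set rest on 4 cows at 12 h. That of CYP7A1 was lost without cow 3 (adjusted p = 0.0116), and that of SLC10A1 without cow 1, 3 or 8 (adjusted p = 0.0217, 0.0137 and 0.0165).

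From 12 to 48 h all 5 genes and all 8 probe sets rose, in a comparison that called 6.86% of all probe sets higher. The log2 differences were 5.82 for CYP7A1, 3.24 for SLC10A1, 3.07 for ABCG8 (adjusted p = 0.0017), 1.82 for SLC27A5 and 0.97 for CYP27A1. The call of ABCG8 was lost without cow 1, 3 or 7 (adjusted p = 0.0744, 0.465 and 0.313), and that of CYP27A1 without cow 7 (adjusted p = 0.0133). The rise of CYP7A1 was 7.04 without the array of cow 1 at 12 h and 5.17 without cow 7, and that of ABCG8 was 3.80 without the array of cow 8 at 12 h.

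Whether the 5 genes changed by unequal amounts was asked within each cow, from the change of 1 gene minus that of the other, with an exact two-sided sign-flip permutation test over the 8 cows at 9 and 48 h. The smallest p that 8 cows can give is 0.00781. The test compares readings of different probe sets, so unequal change of transcripts and unequal response of probe sets cannot be told apart. At 9 h the 4 probe sets of SLC10A1 alone had log2 changes from -1.82 to -3.46. For the entry enzymes of the classic and the alternative pathway, the change of CYP7A1 minus that of CYP27A1 was -9.18 at 9 h (SD 0.76, negative in 8 of 8 cows, exact p = 0.00781). At 48 h it was 0.90 (SD 0.56, positive in 8 of 8 cows, exact p = 0.00781), with mean changes of 0.41 for CYP7A1 and -0.49 for CYP27A1. At 48 h the pair thus stood on opposite sides of their levels at -22 h on average, with only CYP27A1 called different.

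All 10 pairs of the measured genes were then compared at both hours, a set chosen once it was seen which genes have a probe set. With adjustment over these 20 tests, 9 of the 10 pairs differed at 9 h (adjusted exact p = 0.0142 for each). The order of the falls at 9 h was CYP7A1, ABCG8, SLC10A1, SLC27A5 and CYP27A1. Of the neighbours, SLC27A5 minus SLC10A1 did not differ beyond the spread between cows with the brightest SLC10A1 probe set, at 0.15 (SD 0.63, exact p = 0.508, adjusted p = 0.598). With each of the other 3 probe sets SLC10A1 had fallen more than SLC27A5 in 8 of 8 cows, by 1.01 to 1.78 (adjusted exact p = 0.0139 for each, over 32 tests of the 4 SLC10A1 probe sets added once they were seen to differ). The place of SLC10A1 between ABCG8 and SLC27A5 in the order of means was the same on all 4. The largest fall exceeded the next, that of ABCG8, by -4.93 (SD 0.84). Both genes ended little above 2.49 at 9 h, at means of 3.10 and 2.60, from means of 13.19 and 7.76 at -22 h. Either fall may thus be understated, and this pair, counted among the 9, cannot tell which transcript fell more. At 48 h the change of CYP7A1 lay above that of each of the other 4 genes, by 0.62 for SLC10A1 (adjusted exact p = 0.0142), 0.89 for SLC27A5 (0.026), 0.90 for CYP27A1 (0.0142) and 1.03 for ABCG8 (0.036). Of the other 6 pairs at 48 h, only CYP27A1 minus SLC10A1 passed, at -0.28 (adjusted exact p = 0.0446). The results with SLC10A1 at 48 h depended on its probe set. CYP27A1 minus SLC10A1 was -0.17 with Bt.16250.1.A1_at (adjusted exact p = 0.0761), -0.65 with Bt.16250.2.S1_at (0.0394) and 0.14 with Bt.16250.3.S1_at (0.617). CYP7A1 minus SLC10A1 was 0.25 with Bt.16250.2.S1_at (adjusted exact p = 0.404), and ABCG8 minus SLC10A1 was -0.78 with the same probe set (0.0475).

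4 of the cows were biopsied 6 times and the other 4 were biopsied 3 times. At 9 h the change of CYP7A1 was -9.78 in the 4 cows with 6 biopsies and -10.39 in the 4 with 3, a difference of 0.62 (SE 0.42, adjusted p = 0.956). For the other 7 probe sets at 9 h the difference between the schedules was between -0.39 and 0.10, and no probe set of the 5 genes was called at 9 h or at 48 h. Over the whole array limma called 3 probe sets at 9 h and 0 at 48 h, with 667 and 398 at an unadjusted p below 0.05.

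Over the 36 arrays the values of CYP7A1 correlated most with those of ABCG8 among the measured genes of the list (Pearson's r = 0.921, rank 113 of 9154 genes). The correlation was 0.686 with SLC27A5, 0.556 with SLC10A1 and 0.546 with CYP27A1, and that between SLC27A5 and CYP27A1 was 0.898. The 5 genes most like CYP7A1 were FNDC3A (0.974), the kinesin motor subunit KIF3B (0.974), SAT2 (0.973), TCEAL8 (0.972) and GRAMD1C (0.968). These are descriptions: the arrays share cows and hours, and much of any r comes from the hourly means. TCEAL8, for example, had mean log2 values of 12.26 at -22 h, 11.64 at 3 h, 9.00 at 6 h, 8.84 at 9 h, 10.21 at 12 h and 12.47 at 48 h.

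The other enzymes of bile acid synthesis largely fell as well. Of 20 listed, 14 were measured, and 12 of these were lower and none higher at 9 h (22.6% of all probe sets lower and 32% higher), with a median log2 change of -1.81. At 6 h 12 were lower and 1 higher, at 12 h 12 lower and 2 higher, and at 3 and 48 h none was lower and 1 was higher. The 4 genes of the list with the largest changes at 9 h included the racemase AMACR at -4.87 (SE 0.18), the peroxisomal oxidase ACOX2 at -3.16 (SE 0.12) and the peroxisomal importer ABCD3 at -2.94 (SE 0.26). HSD3B7, which acts on the ring after CYP7A1, was at -2.65 (SE 0.16). All 4 were lower in 8 of 8 cows. AMACR had mean log2 values of 10.91 at -22 h, 11.11 at 3 h, 9.00 at 6 h, 6.04 at 9 h, 8.20 at 12 h and 11.65 at 48 h, and it was higher at 48 h than at -22 h by 0.74 (SE 0.18, adjusted p = 0.00335). CH25H, the cholesterol 25-hydroxylase, was the enzyme higher at 3 h, by 1.89 (SE 0.38, adjusted p = 0.000996), and at 6 h, by 2.60 (SE 0.38), both from a mean of 2.54, little above 2.49.

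Of 16 other transporters of bile acids and of the canalicular membrane, 11 were measured, and 9 were lower and 1 higher at 9 h, against 22.6% and 32% of all probe sets (median log2 change -1.42). The organic anion transporter SLCO2B1 was at -4.95 (SE 0.23) and the organic anion transporter SLC22A7 at -2.36 (SE 0.39), each lower in 8 of 8 cows. The heterodimeric exporter OSTα-OSTβ of the basolateral membrane had its subunits moving in opposite directions. SLC51A (OSTα) had log2 values of 6.12 to 7.91 at 9 h (median 7.07), against 2.30 to 2.62 at -22 h (median 2.32), a change of 4.69 (SE 0.27, adjusted p = 6.68e-16) that is a lower bound. SLC51B (OSTβ) had log2 values of 4.15 to 5.17 at 9 h (median 4.72), against 8.44 to 9.77 at -22 h (median 8.99), a change of -4.37 (SE 0.23, adjusted p = 5e-17). All SLC51B values at 9 h lay below those at -22 h, as did those of 13.2% of all probe sets. By 48 h neither subunit was called different (changes of 0.10 and 0.12).

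Of 22 regulators of these genes, 13 were measured, and 6 were lower and 4 higher at 9 h, where 22.6% of all probe sets were lower and 32% higher (median log2 change -0.57). The 4 higher of 13 are thus near the share over all probe sets. NR1H4 (FXR) and its target NR0B2 were not analysed here. At 3 h, when CYP7A1 was the only one of its 5 genes called, 4 regulators were lower and none higher (2.4% and 3.5% of all probe sets). These were the transcription factors HNF4A at -1.60 (SE 0.31, adjusted p = 0.000746), CEBPA at -1.73 (SE 0.28, adjusted p = 7.66e-05) and MAFG at -0.84 (SE 0.20, adjusted p = 0.00589), and the FGF receptor FGFR4 at -0.73 (SE 0.21, adjusted p = 0.0338). HNF4A, a hepatocyte nuclear receptor that activates CYP7A1 in humans and rodents, was at -2.40 at 9 h (SE 0.25) and at -0.58 at 12 h (SE 0.31, adjusted p = 0.154). FGFR4 and its co-receptor KLB, which together receive FGF19, were both lower at 6, 9 and 12 h. KLB had log2 values of 2.50 to 3.09 at 9 h, against 9.62 to 11.31 at -22 h. FGFR4 had 4.49 to 5.14 at 9 h, against 6.48 to 7.40 at -22 h. With the mean of all probe sets of a gene the log2 change at 9 h was smaller, at -5.13 for KLB and -1.16 for FGFR4, and both stayed called. RXRA, the partner of many nuclear receptors, was at -2.55 at 9 h (SE 0.12). The co-activator PPARGC1A and the nuclear receptor NR5A2 were higher, at 2.97 and 2.27 at 6 h and at 2.76 and 0.84 at 9 h.

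Of 19 genes of sterol uptake, efflux and esterification, 12 were measured, and 5 were higher and 6 lower at 9 h, where 32% of all probe sets were higher and 22.6% lower (median log2 change -0.17). Among the 5, OSBP was higher by only 0.036, from a mean of 1.97 at -22 h, near the lower end of the scale. The acyltransferases that esterify cholesterol changed in opposite directions at 9 h, SOAT1 at 2.45 (SE 0.23) and SOAT2, the form of mouse hepatocytes, at -2.85 (SE 0.42). SOAT2 had log2 values of 3.08 to 6.47 at -22 h and a mean of 2.30 at 9 h, so its change is a lower bound. The phospholipid transfer protein PLTP was at 2.46 (SE 0.33) and SCARB1, a receptor of high-density lipoprotein, at 1.99 (SE 0.13).

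**Figure D4:**
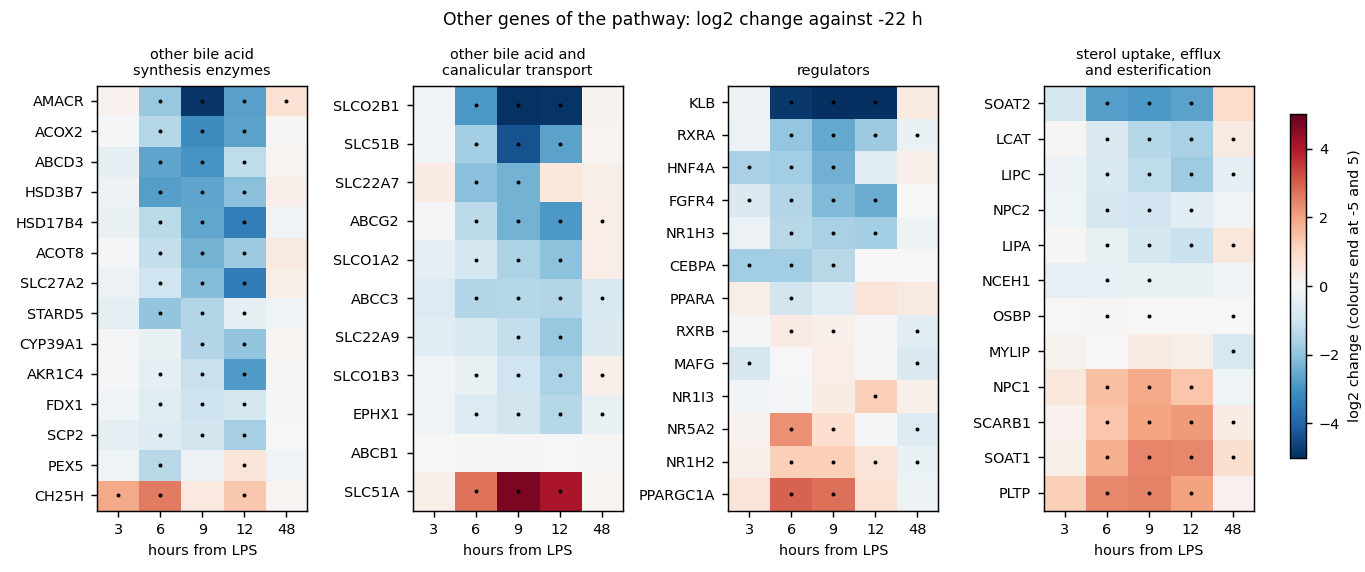
Log2 change against -22 h at 3, 6, 9, 12 and 48 h after LPS (columns) of the measured genes of 4 lists (rows, ordered within a list by the change at 9 h), in blue for lower and red for higher, with the colours ending at -5 and 5 and a dot where the adjusted p is below 0.05. Most synthesis and transport genes are blue at 6, 9 and 12 h. Those called higher are SLC51A, which reaches 4.69 at 9 h, CH25H at 6 and 12 h (2.60 and 1.37) and PEX5 at 12 h (0.61).

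Of the genes that lie close to CYP7A1 or ABCG8, 3 were measured, and none of them was called lower at 9 h. At that hour 22.6% of all probe sets were called lower and 32% higher, so a count over 3 genes cannot set them apart. In the gene order of the bovine assembly ARS-UCD2.0, used here for order only, SDCBP lies close to CYP7A1 and was higher at 9 h by 1.42 (SE 0.10, adjusted p = 7.69e-14). Of the genes close to ABCG8, DYNC2LI1 was at 0.09 (SE 0.04, adjusted p = 0.0508) and PPM1B at -0.15 (SE 0.06, adjusted p = 0.0572) at 9 h.

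Markers of some cell types moved with the hours too. Over all probe sets, 22.6% were called lower and 32% higher at 9 h, and 18.9% lower and 22.2% higher at 12 h. At 9 h 2 of 12 T and natural killer cell markers were lower and none higher. Of 10 stellate cell and fibroblast markers 2 were lower and 1 higher. Of 7 cholangiocyte markers 2 were lower and 2 higher at 9 h, and of 6 red blood cell markers 2 were higher and none lower. The 2 were HBA at 0.064 and HBM at 0.035, and 5 of the 6 (HBA, ALAS2, SLC4A1, AHSP and HBM) lay near the lower end at -22 h. CD4 and NKG7 (T and natural killer cell), PDGFRB and RGS5 (stellate cell and fibroblast) and CLDN4 (cholangiocyte) lay near it too. All 13 hepatocyte markers were measured and none lay near the lower end of the scale. Their mean log2 value was 13.43 to 13.90 at -22 h, 13.70 to 13.92 at 3 h, 13.10 to 13.29 at 6 h, 12.66 to 13.15 at 9 h, 13.28 to 13.59 at 12 h and 13.92 to 14.08 at 48 h, and at 9 h 9 of the 13 were lower and 1 higher (median log2 change -0.41). The falls were uneven, largest for TTPA at -3.72 and TAT at -3.49. The 3 not called were ALB, SERPINA1 and AMBP, at -0.06, -0.05 and -0.06, and the 1 higher was FGB. Of 9 neutrophil markers measured, 5 were higher and 1 lower at 12 h, and their mean was 5.81 to 7.53 at 12 h, against 3.73 to 4.05 at -22 h, with CXCR1, MMP9, ELANE and MPO near the lower end at -22 h. Of 10 endothelial markers 7 were lower and 1 higher at 9 h, with a mean of 5.80 to 6.06 at 9 h, against 6.41 to 7.24 at -22 h, and VWF and KDR near the lower end. Of 8 macrophage markers 4 were lower at 9 h, with a mean of 8.18 to 9.17 at 9 h, against 8.61 to 9.47 at -22 h. The probes at the 3′ end minus those at the 5′ end of the GAPDH control had a median of -0.31 at 12 h and -0.21 at 48 h, against 0.19 at -22 h. For the actin control the median was 2.73 at 12 h and 2.35 at 48 h, against 2.25 at -22 h. For the EF1a control the values were -3.37 to -2.79 at 48 h (median -3.04), against -2.25 to -1.92 at -22 h (median -2.17), with no overlap, and the median at 12 h was -2.50. The part of cell composition and RNA quality in the changes of the bile acid genes was not tested.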

How the data were processed

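Liver RNA of 8 cows was measured on 36 arrays, grouped by the hour in their labels. The authors made the deposited log2 values with GCRMA (named in the submitters' processing notes), which corrects the background, quantile-normalizes the arrays and gives 1 value per probe set. The number of cows and their spread limit the precision. A genome build is not given in the sources used here. Of 24128 probe sets, 13292 name 1 gene, 86 several and 10724 are not in the annotation table (112 are controls). A mean for each hour, without a cow term, was estimated for every probe set in limma 3.58.1 (R 4.3.3). Successive hours were compared after the methods of the study (Bonferroni, 0.01), and each hour was also compared with -22 h (Benjamini-Hochberg, 0.05), a choice made here. Scripts were tested on simulated data, and figures were drawn with matplotlib 3.10.9.

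Text names all genes of the list, the 5 genes most correlated with CYP7A1, up to 4 called genes of each further list with the largest change at 9 h, and the regulators NR1H4, NR0B2, NR5A2, HNF4A, FGFR4, KLB and PPARGC1A. CH25H, CEBPA, MAFG, OSBP, PEX5, SDCBP, DYNC2LI1, PPM1B and the single cell type markers named were outside this rule or chosen after their values were seen. The genes and lists were chosen with earlier results of these data known. Cow numbers identify the animal, and arrays of 1 animal deviated together (mean r = 0.373, 0.0925 to 0.622 over 72 pairs of arrays, against -0.0586 between cows). Alternatives were the cow as a block, leave-one-out over cows, only the 4 cows with every hour, centring on array medians, dropping dim probe sets, array weights, another variance prior, averaging the probe sets of a gene, each SLC10A1 probe set in the pairs, the other adjustment, and single arrays left out. Raw array files were not used here.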

Additional observations from a re-analysis of the deposited data

Results flagged for a closer look

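In 5 of the 48 groups of cows (8 probe sets at 6 hours) 1 cow lay far from the others of its hour, measured by its gap to the nearest cow against the range of the group. Chance alone gives about 1 in 20 such groups. For SLC27A5 at 9 h, cow 6 was the highest at 10.41, with the next cow at 9.92. For SLC10A1 at 48 h, cow 2 was the lowest on 2 probe sets, at 13.41 on Bt.16250.1.A1_at (next 13.71) and at 6.63 on Bt.16250.3.S1_at (next 7.00). For ABCG8 at 3 h, cow 1 was the lowest at 6.12 (next 7.21). For ABCG8 at 6 h, cow 8 was the lowest at 2.24 (next 2.33), a gap within the lower end of the scale.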

How the results depend on the processing

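Of 1520 values of single genes and counts of the further lists under an alternative, 1481 kept their direction and their side of the threshold or stayed within 1.5 times, 23 were no longer called, 12 became called, 3 counts moved further (genes higher at 9 h were 2 transporters without cow 7 or with array weights, and 2 regulators with Bonferroni) and 1 changed sign: CYP27A1 at 3 h, at 0.034 with the 4 cows that have all hours (adjusted p = 0.904). The counts of genes lower at 9 and 12 h stayed at 5 under every alternative run. The cow as a fixed or a random replicate block changed no call of the 5 genes (CYP7A1 at 12 h was -5.31 and -5.38), nor did median centring, which shifts the comparison of 48 h by 0.13 and gave -0.36 for CYP27A1 (adjusted p = 0.00199). Leaving out the arrays of cow 1 at -22 h and cow 2 at 48 h together changed no call either.

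With the 4 cows that have all hours, genes lower at 3 h were 0 and at 48 h 1, genes higher and lower from 9 to 12 h were 0 each, and genes higher from 12 to 48 h were 3. With Bonferroni at 0.01, genes lower were 0 at 3 h, 3 at 6 h and 0 at 48 h. With Benjamini-Hochberg at 0.05 between successive hours, genes lower were 4 from 3 to 6 h, 3 from 6 to 9 h and 3 from 9 to 12 h, and genes higher from 9 to 12 h were 2. With the mean of all probe sets, changes at 9 h were -2.76 for SLC10A1, -4.32 for SLCO2B1 and -1.19 for KIF3B, genes lower at 3 h were 2 (SLC10A1 at -0.69, adjusted p = 0.00878) and from 6 to 9 h 1, and array weights also gave 1 from 6 to 9 h. Leaving out 1 cow at a time gave 0 to 1 genes lower from 6 to 9 h (1 without cow 7), 0 to 1 higher and 0 to 1 lower from 9 to 12 h, and 3 to 5 higher from 12 to 48 h (3 without cow 7). NR5A2 and SLC22A7 at 9 h were not called with Bonferroni at 0.01.

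Of 6 pairs planned for the test of unequal change, 5 hold a gene that was not analysed here and were not run. Values at 3, 6 and 12 h rest on 4 cows, and no change can be measured below the lower end of the scale, which CYP7A1 and ABCG8 approached at 6 and 9 h. Without a cow the difference of CYP7A1 and CYP27A1 was -9.35 to -9.01 at 9 h and 0.77 to 1.02 at 48 h.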
